A study of Homo sapiens with 24 samples.

Results

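ABT-869, a small-molecule inhibitor of receptor tyrosine kinases of the FLT3, VEGF receptor and PDGF receptor families, was compared with its DMSO vehicle in MV4-11 cells. MV4-11 is an established human acute monocytic leukemia line with a KMT2A gene fusion, and its only FLT3 allele carries the internal tandem duplication (ITD) that keeps this receptor active without ligand. The comparison rests on 3 arrays labelled ABT-869 and 3 arrays labelled Control (DMSO), 6 of the 24 arrays of the series, and it was described over all 54613 probe sets that are not array controls. Cells had been treated for 24 h, with 3 nM ABT-869 or with DMSO, in RPMI1640 with fetal bovine serum, and the 3 arrays of each group were described as biological replicates of a single line. The other arrays held MV4-11 cells given 6 µM SAHA (vorinostat, an inhibitor of histone deacetylases) or both drugs, and the same 4 groups of MOLM-14, a second acute monocytic leukemia line that has an ITD allele beside a normal FLT3 allele. The tests within MV4-11 took the spread between arrays from all 12 arrays of the line, those with SAHA or both drugs included. All 24 arrays served to pick the brightest probe set of each gene. Beyond this, the SAHA arrays of MV4-11 and the ABT-869 and DMSO arrays of MOLM-14 were used to show where the response to ABT-869 in MV4-11 differed.

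FLT3 with an ITD signals through STAT5, through the RAS and ERK cascade and through PI3K and AKT. STAT5 switches on survival kinases of the PIM family together with the CISH and SOCS proteins that feed back on cytokine receptors, while ERK drives immediate early genes and its own phosphatases. AKT and mTORC1 signals raise the output of ATF4, the transcription factor that supplies a cell with amino acids and with charged tRNAs. In monocytic leukemia, loss of FLT3 signaling is known to arrest growth and to let some blasts express genes of mature myeloid cells.

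Each value is the signal of a probe set, the scaled brightness of 1 array feature group for 1 transcript. Every array had a mean signal of 500.06 or 500.07 after trimming 2% at each end, median signals were 96.4 to 99.6 on the ABT-869 arrays and 89.3 to 92.0 on the DMSO arrays, and 27.4% of the values on the 6 arrays were below 32, the floor to which low signals were raised before log2 was taken. Arrays correlated with r of 0.9684 to 0.976 within ABT-869, 0.9753 to 0.9756 within DMSO and 0.9657 to 0.9708 between the groups. ABT-869 replicate 2 lay farthest from its group's mean, with an SD of 0.351 (log2), against 0.301 to 0.312 on the other 5 arrays. The myeloid identity of the cells was visible on all 6 arrays: FLT3 had signals of 14056.0 to 16736.1, LYZ (lysozyme) 12300.5 to 18698.3, CEBPA (a myeloid transcription factor) 18966.5 to 22479.9 and MEIS1 (a cofactor of HOX proteins in KMT2A-rearranged leukemia) 1518.9 to 1983.0. Of 26 markers of T cells, B cells, erythroid cells, megakaryocytes, fibroblasts and epithelia, 0 passed the test by limma, 0 had an unadjusted p under 0.05 in either direction, and 9 were under 100 on all 6 arrays. In RNA from a whole culture, fewer cells of a type and less RNA per cell cannot be told apart.

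ABT-869 lowered and raised similar numbers of transcripts in MV4-11, and the largest falls were larger than the largest rises. With limma over the 12 MV4-11 arrays, a probe set was called at an adjusted p under 0.05 and a change of at least 2-fold. By this rule 176 probe sets were higher with ABT-869 than with DMSO (0.322% of those tested) and 195 were lower (0.357%). At gene level, with 1 probe set for each of 19775 genes and no fold limit, 597 genes rose (3.02%) and 652 fell (3.3%), and 59 of the rises and 111 of the falls were at least 2-fold. The shares of 3.02% and 3.3% are the background for every count of list members given below. The median SE of a log2 change was 0.12 for genes with a mean signal of at least 100. The split depended on the scaling: 133 probe sets higher and 255 lower after quantile normalization, and 81 higher and 230 lower when each array was centred on its median. The median log2 change over the brighter probe sets was 0.044 as deposited, 0.003 after quantile normalization and -0.074 after centring, so that calls of small rises depend on the scaling. Among the called probe sets, 20 of the rises had all 3 DMSO arrays at the floor and 15 of the falls had all 3 ABT-869 arrays there, and their fold changes understate the difference.

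The 15 largest falls among the brighter genes were those of IFIT2, RGS1, IFIT3, CCL20, IFIT1, ATF5, TM6SF1, PIM1, APOL4, TRIB3, LINC01512, S100P, CLGN, INHBE and IL32, which ran from -3.23 to -2.07 (log2). The 15 largest rises were those of MPEG1, MS4A4A, S100A8, PLAAT3, LINC02593, ALDH4A1, SCUBE1, PPP1R37, FGL2, MAPK10-AS1, DEFB1, MYOZ3, DTX4, LOC100506858 and GAPT, which ran from 2.85 to 1.57 (log2). Among these rises, further probe sets of MPEG1 and FGL2 and 1 of MS4A4A rose past the test too. Those of S100A8, PLAAT3, LINC02593, ALDH4A1, SCUBE1, PPP1R37 and MYOZ3 did not pass. Genes of the interferon response, of amino acid stress and of FLT3 signaling stood among the falls, and genes of monocytes and macrophages among the rises. Of the 30 genes 8 lost their call when 1 of the 6 arrays was left out, and CCL20 is described further on. APOL4 and LOC100506858 lost it without any 1 DMSO array (adjusted p up to 0.0712 and up to 0.059). LINC02593 lost it without DMSO replicate 1 or 2 or ABT-869 replicate 1 or 3 (up to 0.0841). PPP1R37 lost it without DMSO replicate 1 or 2 or ABT-869 replicate 1 (up to 0.0814). SCUBE1 and MYOZ3 lost it without DMSO replicate 1 or 2 or ABT-869 replicate 2 or 3 (up to 0.087 and up to 0.0757). DEFB1, the gene of a beta-defensin, lost it without any 1 of the 6 arrays (adjusted p up to 0.127), and its DMSO arrays were all under the floor.

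**Figure D1:**
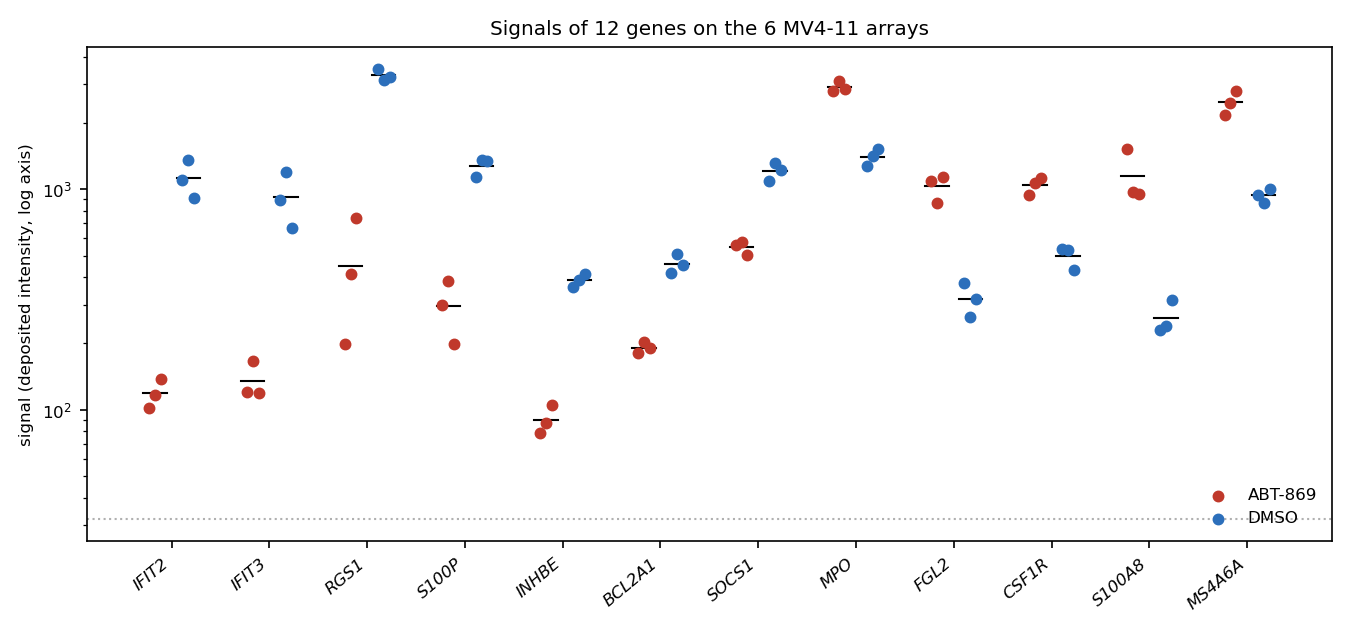
Signal of 12 genes on each of the 6 arrays, with ABT-869 (red) left of DMSO (blue), on a logarithmic axis; bars are group means and the dotted line is the floor of 32. The 3 ABT-869 arrays lie on 1 side of the 3 DMSO arrays for each gene, and RGS1 has the widest spread among its ABT-869 arrays. The 12 genes were picked from those past the test, so this separation is largely built in.

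Many genes of amino acid supply fell. ATF4 binds, as a dimer with C/EBP proteins, to a composite element whose core reads TGATGNAA, and it drives transcription factors, amino acid enzymes, amino acid transporters and tRNA synthetases when amino acids are scarce or mTORC1 is active. Of 20 ATF4 regulators and effectors with a probe set of their own, 16 fell and 0 rose, with a median log2 change of -1.0, against 0.0 over all genes, and the other 4 had negative changes too. Of 14 enzymes of serine, one-carbon and proline metabolism 8 fell and 1 rose, of 17 amino acid transporters 6 fell and 0 rose, and of 17 cytosolic aminoacyl-tRNA synthetases 7 fell and 2 rose. Of the 15 mitochondrial synthetases 3 rose, 0 fell and 12 did not pass.

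Several transcription factors of this pathway were low on the ABT-869 arrays. ATF3, which is induced by stress, had signals of 451.7, 360.8 and 459.7 on the ABT-869 arrays, against 1116.9, 1060.9 and 1063.2 on the DMSO arrays (log2 change -1.36, SE 0.136, adjusted p = 0.00158). DDIT3, the stress factor CHOP, had 796.9, 931.8 and 1015.8 with ABT-869, against 2771.7, 2584.3 and 2986.7 with DMSO (-1.61, adjusted p = 0.000554). CEBPG, a dimer partner of ATF4, had 2060.6, 2095.8 and 1957.7 with ABT-869, against 3617.6, 3313.3 and 3490.9 with DMSO (-0.77, adjusted p = 0.000141). Every ABT-869 array was below every DMSO array for the 3 factors. The mRNA of ATF4 itself, which is controlled mainly through its translation, fell by 0.41 (log2) with an adjusted p of 0.0203, a call that was lost without any 1 of the DMSO arrays and without ABT-869 replicate 1 or 3 (adjusted p up to 0.068). INHBE, which encodes the beta E subunit of activin, had 78.6, 87.3 and 105.3 with ABT-869, against 361.1, 387.7 and 412.8 with DMSO (-2.11, SE 0.173, adjusted p = 0.000729), a group difference wider than either group's spread. CHAC1, a glutathione-degrading enzyme induced by ATF4, fell by 1.41 (adjusted p = 0.000266), and EIF4EBP1, the translation repressor 4E-BP1, fell by 0.60 (adjusted p = 0.00171). The count of 16 falls in the list became 10 without DMSO replicate 1, 11 in the fit of the 6 arrays alone and 9 with a floor of 1, and was 15 with centred arrays.

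Enzymes of asparagine, serine and cysteine synthesis were among the falls. ASNS, which makes asparagine, had signals of 1930.8, 2030.7 and 1765.8 with ABT-869, against 5490.2, 5170.0 and 5487.9 with DMSO, a change of -1.50 (SE 0.0906, adjusted p = 0.000213). CTH, the last enzyme of cysteine synthesis from methionine, had 619.9, 656.2 and 581.5 with ABT-869, against 1717.1, 1502.1 and 1520.4 with DMSO (-1.35, SE 0.0903, adjusted p = 0.000302). PSAT1, an aminotransferase of serine synthesis, had 5693.7, 4984.1 and 5657.1 with ABT-869, against 11389.9, 10914.9 and 11122.5 with DMSO (-1.04, SE 0.0732, adjusted p = 0.00039). For these enzymes the ABT-869 arrays held about the same low level and did not overlap the DMSO arrays. ALDH1L2 and MTHFD2, mitochondrial enzymes of folate metabolism, fell by 1.15 (adjusted p = 0.000131) and by 0.86 (adjusted p = 0.00638). CBS, the enzyme before CTH, fell by 0.96 (adjusted p = 0.00324) and GOT1, the cytosolic aspartate aminotransferase, fell by 0.68 (adjusted p = 0.00412). PHGDH, the first enzyme of serine synthesis, averaged 2859.0 with ABT-869 and 4672.0 with DMSO (-0.71, adjusted p = 0.0249), and its call was lost without any 1 of the 6 arrays (adjusted p up to 0.0768). ALDH18A1, which starts proline synthesis, was the 1 member that rose, by 0.41 (adjusted p = 0.031, up to 0.0975 without any 1 DMSO array or ABT-869 replicate 1 or 2).

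Among the transporters, both chains of the large neutral amino acid exchanger fell. SLC7A5, its transport subunit LAT1, had signals of 2960.0, 3034.8 and 3386.1 with ABT-869, against 7503.7, 6915.0 and 7789.3 with DMSO (-1.24, SE 0.135, adjusted p = 0.00225). SLC3A2, the CD98 heavy chain that carries LAT1 to the membrane, had 1112.2, 1322.2 and 1316.1 with ABT-869, against 2198.6, 2249.2 and 2558.2 with DMSO (-0.90, SE 0.11, adjusted p = 0.00366). SLC7A11, the cystine transporter that also pairs with CD98, had 262.9, 217.1 and 279.2 with ABT-869, against 570.6, 416.1 and 611.4 with DMSO (-1.06, adjusted p = 0.0128). No ABT-869 array reached a DMSO array in any of the 3. The cationic transporter SLC7A1 fell by 0.44 (adjusted p = 0.00985) and SLC38A2, which takes up small neutral amino acids, by 0.26 (adjusted p = 0.00689), while the glutamine carrier SLC1A5 averaged 2251.0 with ABT-869 and 2549.0 with DMSO and did not pass the test (-0.19, adjusted p = 0.412). None of the 4 further probe sets of SLC7A1 passed the test.

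Synthetases that charge tRNAs in the cytosol and in mitochondria are encoded by different genes for most amino acids. Of the cytosolic set 8 of 17 did not pass, and no test compared the 2 sets. WARS1, the cytosolic tryptophan enzyme, which interferon also induces, had signals of 1588.2, 1483.8 and 1411.8 with ABT-869, against 4021.7, 4053.5 and 4216.8 with DMSO (-1.46, SE 0.0706, adjusted p = 6.47e-05). YARS1, the cytosolic tyrosine enzyme, had 3650.3, 3712.0 and 3388.8 with ABT-869, against 6140.4, 6246.3 and 6265.9 with DMSO (-0.80, SE 0.0597, adjusted p = 0.000512). Its mitochondrial counterpart YARS2 had 710.0, 756.6 and 616.7 with ABT-869, against 497.1, 404.6 and 482.5 with DMSO (0.59, SE 0.125, adjusted p = 0.0368). In both tyrosine enzymes the groups were apart, in opposite directions. GARS1, which serves both compartments, fell by 0.80 (adjusted p = 0.00234), AARS1 by 0.69 (adjusted p = 0.00215), SARS1 by 0.69 (adjusted p = 0.0116) and CARS1 by 0.61 (adjusted p = 0.013). The mitochondrial rises were YARS2, PARS2 (0.68, adjusted p = 0.0181) and LARS2 (0.31, adjusted p = 0.0496), and the list's median was 0.15, or 0.03 with centred arrays. These mitochondrial calls were not stable: 0 were left without DMSO replicate 1 or 3 or ABT-869 replicate 1, 1 without DMSO replicate 2 or ABT-869 replicate 2, and 0 after quantile normalization, with centred arrays or with a floor of 1. Of the cytosolic enzymes RARS1 (0.52, adjusted p = 0.0351) and HARS1 (0.33, adjusted p = 0.0189) rose, both in part of the leave-out fits only: 0 rises were left without DMSO replicate 2 or ABT-869 replicate 3, and 1 without DMSO replicate 1 or 3 or ABT-869 replicate 2. ASNS, DDIT3, CHAC1, CEBPG, EIF4EBP1, ATF4, MTHFD2, PHGDH, GOT1, ALDH18A1, SLC38A2, SARS1, CARS1, RARS1 and HARS1 were named after their values were seen.

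**Figure D2:**
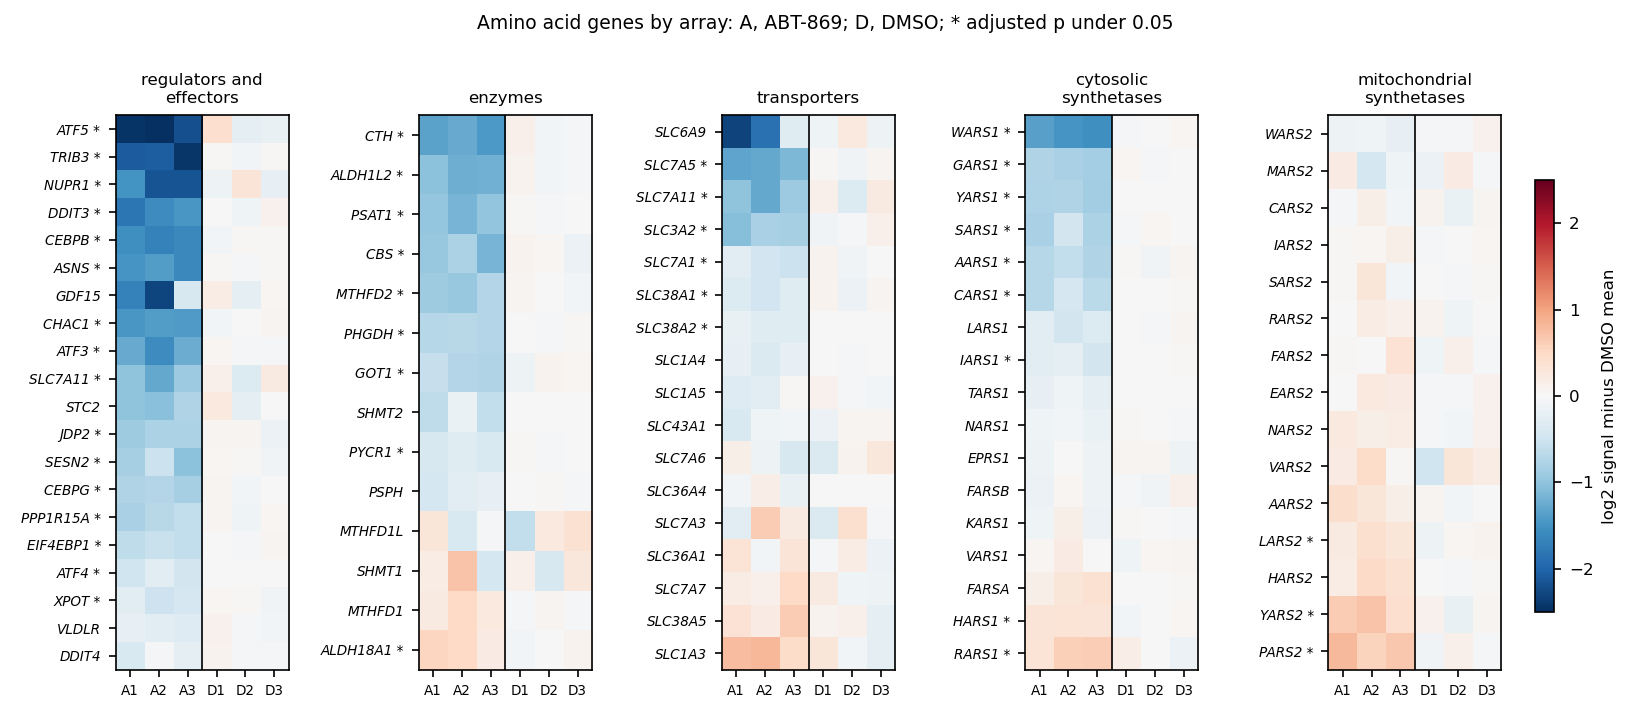
Log2 signal minus the mean of the 3 DMSO arrays for genes of amino acid supply (rows) on the 3 ABT-869 arrays (A1 to A3) and the 3 DMSO arrays (D1 to D3), in 5 blocks by role; blue is below and red above the DMSO mean. ATF4 effectors, enzymes, transporters and cytosolic synthetases such as ASNS and WARS1 are low on each ABT-869 array, while YARS2 is high on each.

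The promoters of 3 of these genes are shown because they hold the ATF4 composite core close to the start of the gene. Each is the RefSeq window of GRCh38.p14 from 250 bases before to 50 after the start, written 5′ to 3′ on the gene's strand, with TGATGNAA on either strand in capitals (AARS1 and SLC3A2 hold it on the reverse strand). The window of ASNS is chr7:97872359-97872658, minus strand, that of AARS1 chr16:70289457-70289756, minus strand, and that of SLC3A2 chr11:62881449-62881748, plus strand.
ASNS: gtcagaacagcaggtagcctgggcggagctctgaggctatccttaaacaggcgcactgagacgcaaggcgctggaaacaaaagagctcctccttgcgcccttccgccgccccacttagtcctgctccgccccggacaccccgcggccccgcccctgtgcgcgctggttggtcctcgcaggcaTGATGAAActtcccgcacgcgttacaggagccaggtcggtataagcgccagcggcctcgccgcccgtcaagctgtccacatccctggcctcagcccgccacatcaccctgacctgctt
AARS1: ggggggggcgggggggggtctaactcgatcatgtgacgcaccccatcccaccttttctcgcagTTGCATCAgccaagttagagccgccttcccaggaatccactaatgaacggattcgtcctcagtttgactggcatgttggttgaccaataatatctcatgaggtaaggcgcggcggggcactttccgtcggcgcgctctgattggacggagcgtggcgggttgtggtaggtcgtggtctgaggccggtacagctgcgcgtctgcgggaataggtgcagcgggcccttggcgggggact
SLC3A2: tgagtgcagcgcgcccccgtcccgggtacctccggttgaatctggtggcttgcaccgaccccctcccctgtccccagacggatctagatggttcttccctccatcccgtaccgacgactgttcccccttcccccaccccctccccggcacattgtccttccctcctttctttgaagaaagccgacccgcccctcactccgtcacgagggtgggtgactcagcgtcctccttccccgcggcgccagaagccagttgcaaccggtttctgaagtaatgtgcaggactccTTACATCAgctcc
The match began 68 bases before the start in ASNS, 187 before it in AARS1 and 37 after it in SLC3A2. The core stood in 3.67% of all 27305 promoter windows of this length, in 3 of 17 windows of the ATF4 list (17.6%), in 4 of 15 of the transporters (26.7%), in 5 of 14 of the cytosolic synthetases (35.7%) and in 1 of 13 of the mitochondrial synthetases (7.69%). Of the genes with a match, 3 of the ATF4 list, 3 of the transporters and 3 of the cytosolic synthetases fell. Falls among all genes with a window numbered 13 in the ATF4 list, 5 in the transporters and 6 in the cytosolic synthetases. Many genes without the core therefore fell too. A match of these letters is a description of the sequence and was not tested as a binding site.

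Of 14 STAT5 targets 4 fell with ABT-869, 3 of them feedback genes, and 10 did not pass. FLT3 itself had signals of 14056.0, 16539.6 and 16736.1 with ABT-869, against 15165.5, 14953.1 and 14874.7 with DMSO, and these overlapped (0.07, SE 0.0635, adjusted p = 0.671). CISH, which blocks STAT5 docking on cytokine receptors, had 1464.5, 1836.6 and 1511.7 with ABT-869, against 5382.8, 5376.2 and 5625.8 with DMSO (-1.77, SE 0.117, adjusted p = 0.000279). SOCS1, an inhibitor of JAK kinases, had 557.4, 575.8 and 503.5 with ABT-869, against 1092.2, 1319.9 and 1220.0 with DMSO (-1.15, SE 0.108, adjusted p = 0.0012). Both feedback genes were low on each ABT-869 array. SOCS2, which tempers growth hormone and FLT3 signaling, was among the brighter genes and fell less, with 10778.6, 11996.5 and 10656.2 with ABT-869, against 15755.8, 15695.2 and 15895.1 with DMSO (-0.50, SE 0.0643, adjusted p = 0.00458). SOCS3, another feedback gene, averaged 191.6 ± 35.4 with ABT-869 and 189.6 ± 14.9 with DMSO (SD, n = 3 each; 0.00, adjusted p = 1.0). The fourth fall was that of PIM1, and the count of 4 was one that held without any 1 of the 6 arrays, and the list's median was -0.15. PIM2 (-0.09, adjusted p = 0.902), CCND2 (-0.18, adjusted p = 0.337) and MYC (-0.25, adjusted p = 0.103) did not pass the test, and for MYC the ABT-869 arrays (17087.9, 19294.5 and 16572.8) nevertheless all lay below the DMSO arrays (21067.4, 20495.2 and 21159.6).

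The promoter of CISH is shown for its run of STAT motifs, and it is the window chr3:50611725-50612024 (GRCh38.p14, minus strand), with each TTCNNNGAA, a palindrome that reads alike on both strands, in capitals.
CISH: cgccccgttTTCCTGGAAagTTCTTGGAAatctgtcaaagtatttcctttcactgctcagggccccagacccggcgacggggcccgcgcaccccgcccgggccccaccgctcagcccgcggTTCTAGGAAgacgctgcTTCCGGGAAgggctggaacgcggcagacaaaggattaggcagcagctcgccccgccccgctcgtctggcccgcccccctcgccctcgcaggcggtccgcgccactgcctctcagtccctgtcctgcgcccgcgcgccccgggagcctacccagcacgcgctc
Its 4 matches began 241, 230, 129 and 112 bases before the start. The motif stood in 7.88% of all promoter windows and in 2 of the 10 windows of the STAT5 list, those of CISH, which fell, and of BCL6, which did not pass the test.

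Of 10 receptors that ABT-869 inhibits or that are related to them, 2 rose and 0 fell by their brightest probe sets. CSF1R, the receptor of the macrophage growth factor M-CSF, had signals of 945.1, 1069.5 and 1125.0 with ABT-869, against 538.4, 530.6 and 428.8 with DMSO (1.07, SE 0.148, adjusted p = 0.00645). RET, the receptor of GDNF-family ligands, had 6230.8, 5658.7 and 6146.2 with ABT-869, against 3536.3, 3402.6 and 3312.6 with DMSO (0.81, SE 0.0519, adjusted p = 0.00026). Both were high on each ABT-869 array, and both calls held without any 1 of the 6 arrays. KIT, the receptor of stem cell factor, was dim and averaged 209.0 ± 5.37 with ABT-869 and 159.4 ± 12.1 with DMSO (SD, n = 3 each; 0.39, adjusted p = 0.554), and FLT1, a VEGF receptor, averaged 216.5 with ABT-869 and 427.2 with DMSO (-0.97, adjusted p = 0.124). A further probe set of FLT1 did fall, with means of 147.3 with ABT-869 and 374.3 with DMSO (-1.34, adjusted p = 0.00103), and the other 4 did not pass. PTP4A3 (PRL-3), a phosphatase linked to cell migration, had 1169.1, 1541.1 and 1314.6 with ABT-869, against 3056.8, 2622.2 and 2681.7 with DMSO (-1.06, SE 0.114, adjusted p = 0.00215). A second probe set of PTP4A3 fell by 0.84 (adjusted p = 0.0254), while another, dim one was at 0.43. PTP4A1 (-0.44, adjusted p = 0.193) and PTP4A2 (-0.19, adjusted p = 0.207), its relatives, did not pass the test.

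Of 15 ERK feedback genes and ETS factors 2 fell and 0 rose, and DUSP6, the ERK phosphatase that is a common readout of this cascade, was alike in both groups with 2524.3, 2851.0 and 2574.9 with ABT-869, against 2707.1, 2773.3 and 2674.2 with DMSO (-0.04, adjusted p = 0.943). SPRY2, an inhibitor of receptor signaling to RAS, fell by 0.31 (adjusted p = 0.0105), and PHLDA1, a gene induced by growth factors, had 193.2, 191.8 and 222.5 with ABT-869, against 329.2, 408.5 and 348.7 with DMSO (-0.84, adjusted p = 0.0134). Both falls were seen on all 3 ABT-869 arrays. EGR1 had 717.7, 597.5 and 348.2 with ABT-869, against 858.5, 932.1 and 859.6 with DMSO, groups that did not overlap but did not pass the test (-0.73, SE 0.357, adjusted p = 0.363). Of 22 immediate early genes 5 fell and 0 rose, ATF3 and the growth-arrest factor KLF6 (-0.61, adjusted p = 0.00746) among them, and the count was 3 without any 1 DMSO array and 2 without ABT-869 replicate 1 or 3.

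In the BCL2 family, 3 of 15 members fell and 12 did not pass, with a median of -0.02. BCL2A1, which protects cells from death, had signals of 180.4, 203.0 and 189.8 with ABT-869, against 418.3, 510.7 and 452.2 with DMSO (-1.27, SE 0.132, adjusted p = 0.0019). PMAIP1 (NOXA), which promotes death by binding MCL1, had 1932.9, 1493.1 and 1506.6 with ABT-869, against 2874.7, 3122.8 and 2675.6 with DMSO (-0.82, SE 0.107, adjusted p = 0.00509). BCL2 averaged 2939.0 ± 148.5 with ABT-869 and 3547.0 ± 29.8 with DMSO (SD, n = 3 each; -0.27, adjusted p = 0.00966), a fall that was not called with a floor of 1, with centred arrays, over bright probe sets only or in the fit of the 6 arrays, and its 3 dim further probe sets stood at 0.34, 0.63 and 0.48 without passing the test. These were the 3 falls among 15 members, without any 1 of the 6 arrays too, and 0 rose. MCL1 averaged 6337.0 with ABT-869 and 6430.0 with DMSO (-0.02, adjusted p = 1.0). BCL2L11 (BIM), which growth factor withdrawal induces in many cells, averaged 2158.0 with ABT-869 and 1861.0 with DMSO (0.21, adjusted p = 0.396). BCL2L1 averaged 206.1 with ABT-869 and 348.9 with DMSO (-0.78, adjusted p = 0.103).

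The IFIT genes were among the largest falls, and most other interferon-induced genes did not pass the test. Of 40 such genes 6 fell and 1 rose, against 3.3% and 3.02% of all genes, and the median was -0.25. IFIT2, an RNA-binding antiviral protein, had signals of 101.9, 116.8 and 137.9 with ABT-869, against 1098.7, 1360.4 and 911.9 with DMSO (-3.23, SE 0.239, adjusted p = 0.000478). Its relative IFIT3 had 120.6, 166.5 and 119.5 with ABT-869, against 898.4, 1201.7 and 667.9 with DMSO (-2.74, SE 0.207, adjusted p = 0.000515), and IFIT1 fell by 2.45 (SE 0.24, adjusted p = 0.00139). The ABT-869 arrays of all 3 lay between 101.9 and 166.5, far from the DMSO arrays, of which replicate 2 was highest and replicate 3 lowest for each of these genes. IFITM1, a membrane protein that limits virus entry, fell by 0.77 (adjusted p = 0.0116). IFIH1, a sensor of viral RNA, fell by 0.80 (adjusted p = 0.0188, up to 0.0602 without DMSO replicate 1 or 2 or ABT-869 replicate 2 or 3). ISG15, a ubiquitin-like protein, fell by 0.88 (adjusted p = 0.0405, up to 0.123 without any 1 DMSO array or ABT-869 replicate 2 or 3). MX1 (0.52, adjusted p = 0.554), OAS1 (-0.37, adjusted p = 0.742) and IRF1 (-0.06, adjusted p = 0.748) did not pass the test. IFI16, a DNA sensor, was the 1 member that rose, with 1230.2, 1102.6 and 903.0 with ABT-869, against 640.5, 619.7 and 639.8 with DMSO (0.76, adjusted p = 0.00645).

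The promoters of IFIT1, at chr10:89392373-89392672, and IFIT3, at chr10:89327747-89328046 (GRCh38.p14, both on the plus strand), are shown because each holds a pair of interferon-stimulated response element cores, with the core, a pair of GAAA boxes spaced by 2 bases, in capitals on either strand.
IFIT1: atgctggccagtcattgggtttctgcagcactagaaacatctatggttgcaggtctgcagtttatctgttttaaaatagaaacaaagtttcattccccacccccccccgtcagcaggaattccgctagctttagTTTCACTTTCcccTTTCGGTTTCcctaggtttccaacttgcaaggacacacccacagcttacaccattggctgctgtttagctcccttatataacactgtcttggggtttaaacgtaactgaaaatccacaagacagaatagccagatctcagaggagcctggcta
IFIT3: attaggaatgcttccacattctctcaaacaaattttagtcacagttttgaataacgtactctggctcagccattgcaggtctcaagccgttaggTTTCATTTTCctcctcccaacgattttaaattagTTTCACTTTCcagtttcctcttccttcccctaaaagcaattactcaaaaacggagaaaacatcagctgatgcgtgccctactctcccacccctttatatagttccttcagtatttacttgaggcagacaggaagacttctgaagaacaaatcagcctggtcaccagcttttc
The matches began 116 and 103 bases before the start of IFIT1 and 156 and 122 before that of IFIT3. The core stood in 3.65% of all promoter windows and in 21 of the 32 windows of interferon-induced genes (65.6%), and all 5 genes with a window that fell held it, as did 16 that did not fall.

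Secreted signals split. CCL20, a chemokine for CCR6-bearing lymphocytes, had signals of 30.4, 55.9 and 22.2 with ABT-869, against 150.8, 302.0 and 277.1 with DMSO (-2.59, SE 0.475, adjusted p = 0.021), and its call was lost without DMSO replicate 2 or 3 or ABT-869 replicate 1 or 3 (adjusted p up to 0.0742). IL32, a proinflammatory cytokine, had 16.9, 16.3 and 23.0 with ABT-869, all under the floor, against 188.1, 96.0 and 135.4 with DMSO (-2.07, adjusted p = 0.00433, measured to the floor). CCL5 (RANTES), which attracts T cells and monocytes, was bright and had 4181.5, 6297.4 and 4083.1 with ABT-869, against 10436.3, 10326.0 and 9229.5 with DMSO (-1.07, SE 0.164, adjusted p = 0.0101). These 3 were low on each ABT-869 array. TNF went the other way, with 3212.7, 2550.2 and 2203.9 with ABT-869, against 1300.2, 1207.8 and 1622.3 with DMSO (0.94, SE 0.182, adjusted p = 0.026), though the call was lost without DMSO replicate 1 or 2 or ABT-869 replicate 1 or 2 (adjusted p up to 0.088). LTB, lymphotoxin beta, rose by 0.79 (adjusted p = 0.0198, up to 0.0711 without DMSO replicate 2 or 3 or any 1 ABT-869 array). Of 20 genes of RGS proteins, which switch off G proteins below chemokine receptors, and of chemoattractant receptors, 4 fell, 2 rose and 14 did not pass, with a median of -0.01. RGS1 had 199.3, 411.2 and 741.5 with ABT-869, against 3494.6, 3137.2 and 3218.4 with DMSO (-3.06, SE 0.433, adjusted p = 0.00715), the ABT-869 arrays being far more scattered than the DMSO arrays. RGS16 fell by 0.75 (adjusted p = 0.00162) and RGS2 by 0.84 (adjusted p = 0.0147, up to 0.0514 without DMSO replicate 1 or 2 or ABT-869 replicate 1 or 3). The receptor of the complement fragment C5a, C5AR1, was low in both groups, with all 3 ABT-869 arrays under the floor, against 80.9, 49.5 and 67.2 with DMSO (-1.01, adjusted p = 0.00682, again measured to the floor). The rises were P2RY2, a nucleotide receptor (0.58, adjusted p = 0.0254, up to 0.0761 without DMSO replicate 1 or 2 or any 1 ABT-869 array), and CX3CR1, the fractalkine receptor (0.48, adjusted p = 0.0372, up to 0.112 without any 1 DMSO array or ABT-869 replicate 2 or 3). P2RY2 and CX3CR1 were named after their values were seen.

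Genes of monocytes and macrophages made up some of the largest rises. Of 37 measured 8 rose (21.6%) and 0 fell, with a median of 0.21, or 0.09 with centred arrays, where 5 rises were left. MPEG1 and MS4A4A, given above among the largest rises, were members of this list. FGL2 and IRF8, also described here, were not. MS4A6A, a membrane protein of monocytes, had signals of 2177.2, 2465.8 and 2794.7 with ABT-869, against 945.2, 866.0 and 1005.7 with DMSO (1.40, SE 0.129, adjusted p = 0.00109). Its relative MS4A7 had 6121.8, 6167.7 and 5959.9 with ABT-869, against 3239.6, 3956.7 and 3559.9 with DMSO (0.77, adjusted p = 0.00103). FGL2, a fibrinogen-like protein of macrophages, had 1093.3, 864.2 and 1141.0 with ABT-869, against 376.3, 263.4 and 317.3 with DMSO (1.70, SE 0.161, adjusted p = 0.00123). In these genes the lowest ABT-869 array stood clearly above the highest DMSO array. CD36, a scavenger receptor, rose by 1.01 (adjusted p = 0.0127), LYZ by 0.49 (adjusted p = 0.00158), ITGAM (CD11b) by 0.53 (adjusted p = 0.00582) and IRF8, a transcription factor of monocytes, by 0.53 (adjusted p = 0.00361). CD14, the classical monocyte marker, was near or under the floor on all 6 arrays, with 34.1, 21.2 and 11.7 with ABT-869, against 6.7, 8.0 and 8.9 with DMSO, and SPI1 (PU.1) and CEBPA overlapped between the groups. FCGR2B, an inhibitory antibody receptor, rose by 0.51 (adjusted p = 0.0181, up to 0.0626 without DMSO replicate 1 or 2 or ABT-869 replicate 3).

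S100 and granule proteins held both rises and falls, 2 rises and 1 fall among 9 S100 proteins and 3 rises and 2 falls among 12 granule proteins. S100P had signals of 297.7, 385.6 and 199.9 with ABT-869, against 1141.3, 1356.9 and 1344.6 with DMSO (-2.17, SE 0.212, adjusted p = 0.0014), while its relatives S100A8 and S100A9, the subunits of calprotectin, rose by 2.12 (adjusted p = 0.00155) and by 1.16 (adjusted p = 0.015, up to 0.0544 without DMSO replicate 2 or 3 or ABT-869 replicate 1). All 3 are small calcium-binding proteins, and none of the 3 overlapped between the groups. MPO (myeloperoxidase), an early granule enzyme, had 2800.4, 3109.3 and 2863.2 with ABT-869, against 1279.2, 1409.0 and 1522.5 with DMSO (1.06, SE 0.14, adjusted p = 0.00531). The granule rises also included RNASE2, a granule ribonuclease (0.50, adjusted p = 0.0154, and 0.0551 without DMSO replicate 3), and the falls CST7, a protease inhibitor (-0.73, adjusted p = 0.0169, up to 0.0593 without DMSO replicate 1 or ABT-869 replicate 3). Of the neutrophil proteases, PRTN3 rose by 0.48 (adjusted p = 0.0195, up to 0.0681 without DMSO replicate 2 or 3 or ABT-869 replicate 3). CTSG fell by 0.43 (adjusted p = 0.0348, up to 0.109 without any 1 DMSO array or ABT-869 replicate 2 or 3). ELANE (0.03, adjusted p = 0.835) and AZU1 (0.03, adjusted p = 0.98) overlapped between the groups at signals of 17952.6 to 19434.1 and 31828.5 to 37846.3. MHC class II genes were above DMSO in 9 of 11 measured members, with 2 past the test. They were HLA-DMA (0.67, adjusted p = 0.00928) and HLA-DRA (0.66, adjusted p = 0.0435, up to 0.136 without any 1 DMSO array or ABT-869 replicate 2 or 3), and the list's median was 0.42. Of the 11, 6 had an unadjusted p under 0.05, 0 were called with centred arrays, and 1 was left without any 1 DMSO array or ABT-869 replicate 2 or 3. IFI16, IFITM1, IFIH1, LYZ, MS4A7, FCGR2B, CTSG, ELANE and AZU1 were named after their values were seen.

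**Figure D3:**
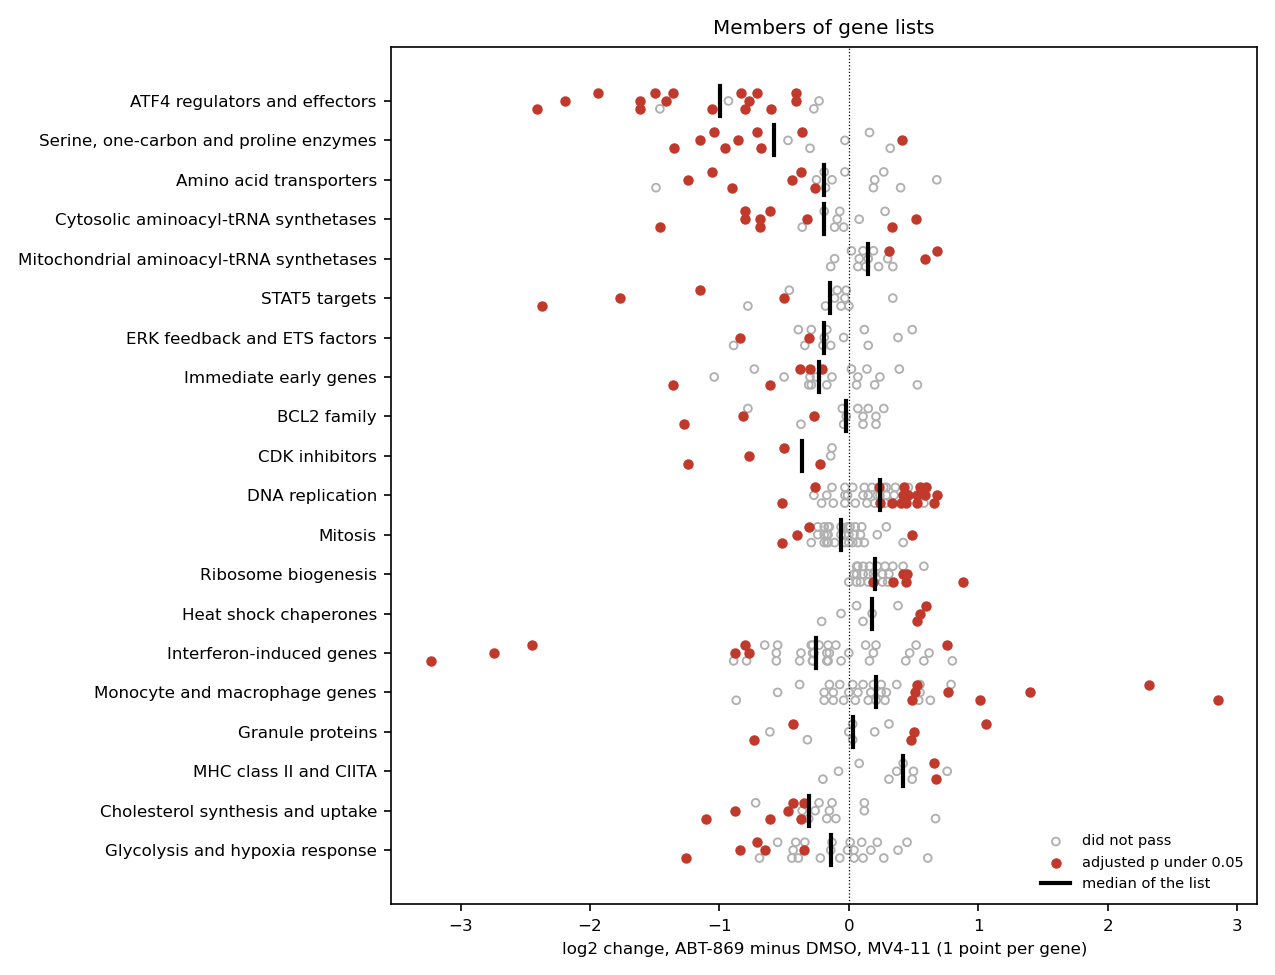
Log2 change with ABT-869 over DMSO for each measured gene of 20 gene lists (rows); 1 point is 1 gene, red points have an adjusted p under 0.05, and the black tick is the list's median. ATF4 regulators and effectors lie lowest with a median of -1.0, and DNA replication genes lie mostly above 0, with a median of 0.24.

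Some genes of DNA replication rose. Of 13 G1 cyclins, kinases and E2F factors only 1 rose (7.69%, against 3.02% of all genes), too few to describe the list. CCNE2 (cyclin E2), which drives entry into S phase, had signals of 1395.6, 1118.5 and 1295.4 with ABT-869, against 624.4, 591.5 and 686.3 with DMSO (1.0, SE 0.0998, adjusted p = 0.00155). Of 44 DNA replication genes 15 rose (34.1%), 2 fell and 27 did not pass, with a median of 0.24, or 0.12 with centred arrays. GINS3, a subunit of the replicative helicase, had 654.0, 683.6 and 609.6 with ABT-869, against 433.7, 399.7 and 394.8 with DMSO (0.66, SE 0.0686, adjusted p = 0.00182). RRM2, the ribonucleotide reductase subunit that limits deoxynucleotide supply, had 8304.7, 9039.8 and 8529.9 with ABT-869, against 5510.3, 5618.1 and 5954.2 with DMSO (0.60, SE 0.0736, adjusted p = 0.00379). By these probe sets each of the 3 was high on every ABT-869 array. A further probe set of each did not pass the test. It stood at 0.61 for CCNE2 (adjusted p = 0.42), at 0.21 for GINS3 (adjusted p = 0.344) and at 0.24 for RRM2 (adjusted p = 0.136). MCM3, of the helicase ring, rose by 0.53 (adjusted p = 0.00607) and RPA1, which coats single-stranded DNA, by 0.55 (adjusted p = 0.00924), while ORC1, the origin recognition subunit, fell by 0.52 (adjusted p = 0.0226, up to 0.0759 without DMSO replicate 1 or 2 or ABT-869 replicate 1 or 3) and RFC4, a clamp loader subunit, by 0.26 (adjusted p = 0.00463). The 15 rises were weakly held: 5, 4 and 6 were left without DMSO replicate 1, 2 or 3, 6, 7 and 8 without ABT-869 replicate 1, 2 or 3, and 1 with centred arrays or with a floor of 1. Among 35 mitotic genes there were 1 rise (KIF11, 0.49, adjusted p = 0.0102), 3 falls and a median of -0.06 (0 falls without DMSO replicate 2 or 3, and 1 without any 1 of the other 4 arrays). These were 2.86% rises and 8.57% falls, against 3.02% and 3.3% of all genes. MKI67, the proliferation marker, overlapped between the groups by its brightest probe set (0.03, adjusted p = 1.0). Its 3 further probe sets stood at 0.40, 0.29 and 0.58 without passing the test.

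All 6 measured inhibitors of cyclin-dependent kinases had negative changes and 4 fell, with a median of -0.36. CDKN2D (p19) had signals of 283.4, 255.3 and 307.3 with ABT-869, against 448.4, 477.0 and 518.2 with DMSO (-0.77, SE 0.14, adjusted p = 0.0201). CDKN1A (p21) averaged 3882.0 ± 410.3 with ABT-869 and 5487.0 ± 33.3 with DMSO (SD, n = 3 each; -0.50, adjusted p = 0.0194). CDKN1B (p27) averaged 6055.0 with ABT-869 and 7047.0 with DMSO (-0.22, adjusted p = 0.026), and CDKN1C (p57) averaged 113.4 with ABT-869 and 270.5 with DMSO (-1.24, adjusted p = 0.0499). In all 4 the arrays of the groups were apart. None of the 4 held in every leave-out fit: 2 falls were left without DMSO replicate 1, 0 without DMSO replicate 2 or 3, and 1 without any 1 ABT-869 array. GADD45A, a stress gene that also restrains the cell cycle, fell by 1.07 (adjusted p = 0.00139) without such losses. All 28 ribosome biogenesis genes had positive changes with a median of 0.20, and 6 rose, among them GRWD1 (0.88, adjusted p = 0.0402, up to 0.115 without any 1 of the 6 arrays) and POLR1B (0.45, adjusted p = 0.00557), a subunit of RNA polymerase I. With centred arrays the median was 0.09 and 0 of the 28 were called, and 3 were left without DMSO replicate 1 or 2, 2 without ABT-869 replicate 3 and 1 without DMSO replicate 3 or ABT-869 replicate 1 or 2. Heat shock chaperones had 3 rises among 9, with HSP90AA1, the inducible HSP90, at 22361.2, 21392.3 and 22245.5 with ABT-869, against 15491.1, 15335.0 and 14253.8 with DMSO (0.55, SE 0.0602, adjusted p = 0.00227), and 0 of these were called with centred arrays. ORC1, RFC4, MCM3, RPA1 and MKI67 were named after their values were seen.

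Some sterol and glucose genes fell. Of 19 genes of cholesterol synthesis and uptake 7 fell and 0 rose, with a median of -0.31. IDI1, which makes dimethylallyl diphosphate, averaged 6218.0 ± 428.5 with ABT-869 and 9477.0 ± 315.8 with DMSO (SD, n = 3 each; -0.61, adjusted p = 0.0301, up to 0.0964 without any 1 of the 6 arrays). DHCR7, the last enzyme of the pathway, fell by 0.47 (adjusted p = 0.0153, up to 0.0544 without DMSO replicate 2 or 3 or ABT-869 replicate 1 or 3). MSMO1 and STARD4, a sterol demethylase and a cholesterol carrier, fell in every leave-out fit, by 1.10 (adjusted p = 0.00323) and by 0.88 (adjusted p = 0.00103). The count of 7 was 4 without DMSO replicate 1, 3 without DMSO replicate 3, and 2 without DMSO replicate 2 or ABT-869 replicate 1 or 3. Of 28 genes of glycolysis and the hypoxia response 5 fell and 0 rose. SLC2A3, the glucose transporter GLUT3, had signals of 6153.9, 8075.5 and 7331.5 with ABT-869, against 13299.2, 12766.5 and 12246.6 with DMSO (-0.84, SE 0.132, adjusted p = 0.0113), and VEGFA, the vascular growth factor, had 8616.4, 8691.5 and 9188.9 with ABT-869, against 14919.3, 14064.0 and 14452.7 with DMSO (-0.71, SE 0.0693, adjusted p = 0.00139). Both were low on every ABT-869 array. ENO2 fell by 1.26 (adjusted p = 0.0136, and 0.0501 without DMSO replicate 1) and HK2, a hexokinase, by 0.65 (adjusted p = 0.0302, up to 0.0971 without any 1 DMSO array or ABT-869 replicate 1 or 3), and 2 further probe sets of HK2 were at 1.16 and 0.91 without passing the test. The count of 5 was 3 without DMSO replicate 2 or 3 or ABT-869 replicate 1 or 3 and 2 without DMSO replicate 1. The 4 falls among 17 genes of the unfolded protein response included XBP1 (-0.67, adjusted p = 0.00582), its central transcription factor, and DNAJB9 (-0.35, adjusted p = 0.0102), a chaperone of the endoplasmic reticulum.

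The falls in MV4-11 were larger than those in MOLM-14 for many amino acid genes and for the IFIT genes, while no sterol gene differed past the test between the lines. The difference between the 2 responses was tested by limma over all 24 arrays. It was above 0 at an adjusted p under 0.05 for 194 genes (0.981%) and below 0 for 245 (1.24%). In MOLM-14 itself the same fit gave 220 probe sets with an adjusted p under 0.05, of which 30 changed at least 2-fold. Of the 170 genes called in MV4-11, 123 had the same sign in MOLM-14, and 78 passed the test of the difference. These 170 were selected for a large change in MV4-11, so a smaller change in the other line is partly built in, and their medians were 1.33 in MV4-11 and 0.16 in MOLM-14 for the rises and -1.33 in MV4-11 and -0.31 in MOLM-14 for the falls. Some genes with a larger fall in MV4-11 also started higher there. With DMSO, IFIT2 averaged 1124 for MV4-11 against 186.2 for MOLM-14, ATF5 4435 against 717.3 and TRIB3 10153 against 2857. With ABT-869 these means were 118.9 against 146.5, 819.4 against 541.6 and 2232 against 2100. By its brightest probe set, SLC7A1 started nearly level, at 5552 against 5406, and ended at 4109 against 5390. Its 4 further probe sets had log2 changes of 0.01, -0.13, -0.02 and 0.55 in MV4-11, none past the test. How far starting levels account for the differences between the responses was not tested.

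WARS1 fell by 1.46 in MV4-11 and had a log2 change of -0.12 in MOLM-14, where it was not past the test, and the difference was -1.34 (adjusted p = 4.13e-06). SLC7A5 had -1.24 in MV4-11 and 0.02 in MOLM-14, a difference of -1.26 (adjusted p = 0.00204), and CEBPG had -0.77 in MV4-11 and 0.16 in MOLM-14, a difference of -0.93 (adjusted p = 4.13e-06). In each of the 4 amino acid lists apart from the mitochondrial synthetases, several members differed and all in this direction: 8 of 20 ATF4 regulators and effectors, 4 of 14 serine, one-carbon and proline enzymes, 3 of 17 transporters and 6 of 17 cytosolic synthetases. CHAC1 was an exception, with -1.41 in MV4-11 and -2.29 (adjusted p = 0.0172) in MOLM-14 and a difference that did not pass the test (0.87, adjusted p = 0.591). IFIT3 had -2.74 in MV4-11 and -0.10 in MOLM-14, a difference of -2.64 (adjusted p = 0.000446), and S100P had -2.17 in MV4-11 and -0.23 in MOLM-14, a difference of -1.94 (adjusted p = 0.000803). Among the rises, DEFB1 differed by 2.62 (adjusted p = 0.0159), MPEG1, a pore-forming protein of macrophages, and LOC100506858 by 2.24, S100A8 by 2.11 and ALDH4A1, an enzyme of proline breakdown, by 2.05. With DMSO all of these genes started lower in MV4-11. DEFB1 averaged 8.4 there against 62.6 in MOLM-14, MPEG1 59.6 against 200.2 and LOC100506858 25.1 against 119.1. S100A8 averaged 261.0 against 3989 and ALDH4A1 48.1 against 249.1. DEFB1 and LOC100506858 had negative changes in MOLM-14 (-0.96 and -0.61), neither past the test there. The part that starting levels play in these differences was not tested. On the side of the falls COXFA4L2, a mitochondrial protein of hypoxic cells, differed by -2.21 (adjusted p = 0.0115), IL31RA, a cytokine receptor chain, by -2.16 (adjusted p = 0.00504) and GSN-AS1 by -2.13 (adjusted p = 0.031). Within MV4-11 the fall of COXFA4L2 was lost without any 1 DMSO array or ABT-869 replicate 1 or 2 (adjusted p up to 0.116) and that of IL31RA without DMSO replicate 2 or 3 (adjusted p up to 0.0599).

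Other genes moved the same way in both lines, with a difference that did not pass the test. SOCS1 had -1.15 in MV4-11 and -0.97 (adjusted p = 0.00254) in MOLM-14, STARD4 had -0.88 in MV4-11 and -0.92 (adjusted p = 0.000125) in MOLM-14, and SLC2A3 had -0.84 in MV4-11 and -0.91 (adjusted p = 0.00981) in MOLM-14. RGS16 had -0.75 in MV4-11 and -0.99 (adjusted p = 0.000162) in MOLM-14, and the differences of these 4 genes were between -0.17 and 0.24 with SEs of 0.122 to 0.205. Of the 19 sterol genes 0 passed the test of the difference, and 8 fell in MOLM-14. CISH fell in both, by 1.77 in MV4-11 and by 0.89 in MOLM-14, with a difference of -0.88 (adjusted p = 0.0101). The count of 330 probe sets with a higher response in MV4-11 fell to 216 without MOLM-14 ABT-869 replicate 2, and the count of 383 with a lower one to 253 without MOLM-14 DMSO replicate 2, and with centred arrays the split was 64 higher and 296 lower.

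**Figure D4:**
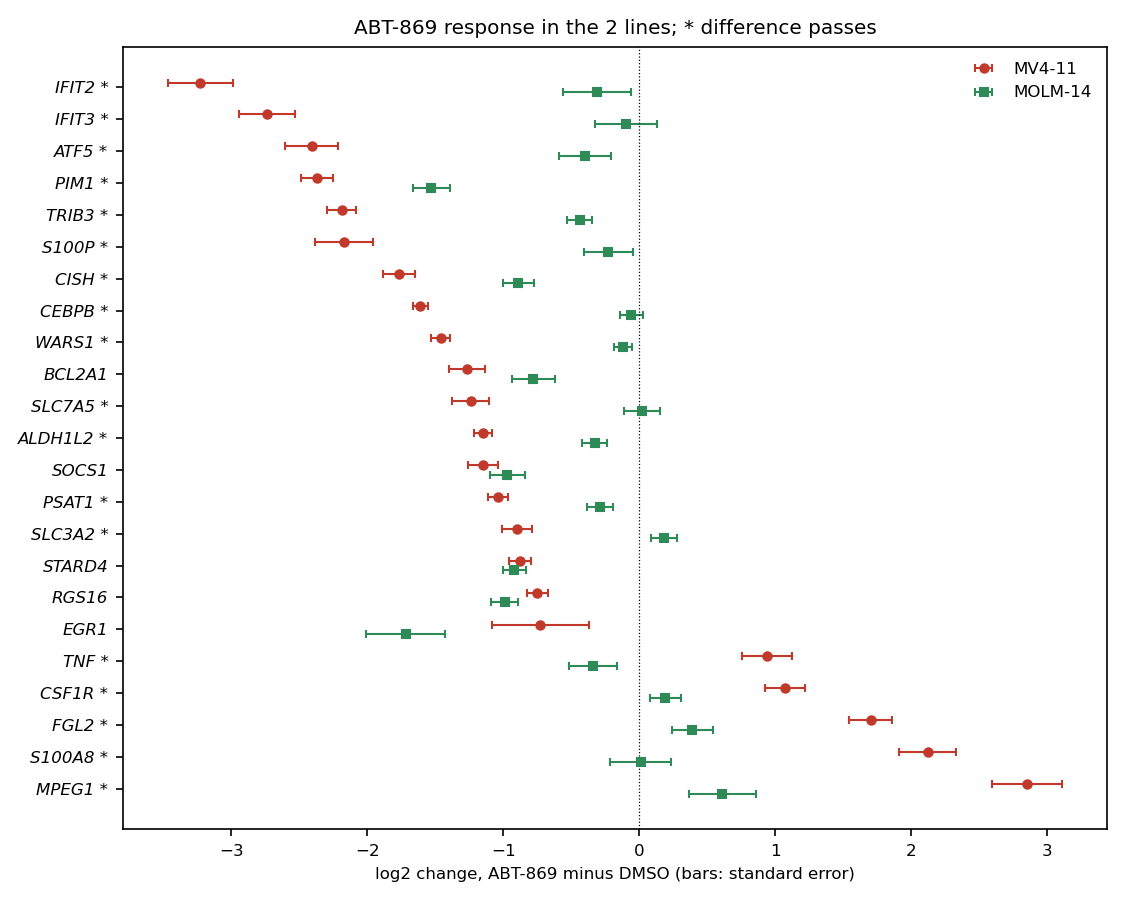
Log2 change with ABT-869 over DMSO for 23 genes in MV4-11 (red circles) and MOLM-14 (green squares), with bars of 1 SE; an asterisk marks a difference between the lines with an adjusted p under 0.05. IFIT2, IFIT3, WARS1 and SLC7A5 lie well below 0 in MV4-11 and near 0 in MOLM-14, while SOCS1, STARD4 and RGS16 lie close together.

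ABT-869 and SAHA were also set against each other in MV4-11, and they differed in genes of the cell cycle, of lysosomes and of phagocytes, among others. By limma 872 genes were higher with ABT-869 than with SAHA (4.41%) and 1267 were lower (6.41%), at 24 h and at 1 dose each, 3 nM and 6 µM, so that the drugs were not matched in dose. At probe set level 279 were at least 2-fold higher and 387 lower, and this split was 187 and 528 after quantile normalization and 111 and 688 with centred arrays. RASD1, a RAS-like protein induced by glucocorticoids, was 4.26 higher with ABT-869 than with SAHA (log2, adjusted p = 0.000688), telomerase reverse transcriptase (TERT) was 2.48 higher (adjusted p = 0.00136) and BLNK, an adaptor of B cell receptor signaling, 2.45 higher (adjusted p = 0.00252). EVPL, ATP6V1C2 and OR7E47P completed the 6 largest on this side, with differences of 2.36, 2.27 and 2.21. None of these 6 passed the test of ABT-869 against DMSO. RASD1 averaged 2065 with ABT-869, 862.9 with DMSO and 122.9 with SAHA (ABT-869 against DMSO, adjusted p = 0.133). EVPL averaged 286.8 with ABT-869 and 294.1 with DMSO, against 57.2 with SAHA. PADI4, which citrullinates histones, was lower with ABT-869 than with SAHA (-3.86, adjusted p = 0.000242), as was IL32 (-3.47, adjusted p = 0.000314), and STAP1, CCL20, MNDA and PIM1 had differences of -3.12, -3.10, -2.77 and -2.75. Of these, PADI4 and STAP1 did not pass the test of ABT-869 against DMSO (adjusted p = 0.0783 and 0.555).

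IL32 averaged 18.7 ± 3.71 with ABT-869, 359.6 ± 73.6 with SAHA and 139.8 ± 46.2 with DMSO (SD, n = 3 each), so that the drugs lay on either side of DMSO. BCL2A1 did the same, with 191.1 ± 11.4 with ABT-869, 672.4 ± 120.7 with SAHA and 460.4 ± 46.7 with DMSO, and ABT-869 was below SAHA (-1.80, adjusted p = 0.000275). TNF had the reverse order, with 2656.0 ± 512.6 with ABT-869, 716.7 ± 30.3 with SAHA and 1377.0 ± 217.6 with DMSO (1.87 above SAHA, adjusted p = 0.000896). LTB and MPO followed TNF, 1.43 (adjusted p = 0.000995) and 1.48 (adjusted p = 0.000822) above SAHA. Monocyte and macrophage genes lay on both sides, with 5 of 37 higher with ABT-869 than with SAHA and 7 lower. MS4A6A averaged 2479.0 ± 309.0 with ABT-869, 558.9 ± 94.0 with SAHA and 939.0 ± 70.1 with DMSO (ABT-869 minus SAHA 2.15, adjusted p = 0.000107), and MPEG1 averaged 405.0 ± 27.8 with ABT-869, 174.9 ± 28.7 with SAHA and 59.6 ± 26.6 with DMSO (1.22, adjusted p = 0.027). CD36 was among the lower ones and averaged 174.2 ± 25.1 with ABT-869, 359.4 ± 43.8 with SAHA and 87.1 ± 18.0 with DMSO (ABT-869 minus SAHA -1.05, adjusted p = 0.00703). MNDA, a nuclear protein of myeloid cells, averaged 295.1 ± 40.5 with ABT-869, 1996.0 ± 107.4 with SAHA and 207.5 ± 13.7 with DMSO, where its rise over DMSO had an adjusted p of 0.0308, up to 0.101 without any 1 DMSO array or ABT-869 replicate 1 or 3 (ABT-869 minus SAHA -2.77, adjusted p = 1.4e-05). CCNE2 averaged 1270.0 ± 140.3 with ABT-869, 1015.0 ± 80.7 with SAHA and 634.1 ± 48.1 with DMSO, and the drugs did not differ past the test (0.32, SE 0.0998, adjusted p = 0.11).

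By list, 19 of 44 DNA replication genes and 18 of 35 mitotic genes were higher with ABT-869 than with SAHA and 0 of either were lower, 15 of 30 lysosome and autophagy genes were lower and 1 higher, and 8 of 20 RGS genes and chemoattractant receptors were lower and 0 higher. For ABT-869 against DMSO, the median log2 change was -0.06 in the mitotic list and -0.04 in the lysosome and autophagy list. Of the ATF4 list 3 were higher with ABT-869 and 0 lower, with a median difference of 0.05, and ATF5, a relative of ATF4, had a difference of 0.01 (adjusted p = 1.0). Low signals of such genes were thus not particular to ABT-869. ATF5 averaged 819.4 with ABT-869, 811.9 with SAHA and 4435 with DMSO, and TRIB3 2232, 1782 and 10153. The transporter SLC7A5 averaged 3127 with ABT-869, 1669 with SAHA and 7403 with DMSO. The 2 comparisons with DMSO share their DMSO arrays and were not set against each other.

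**Figure D5:**
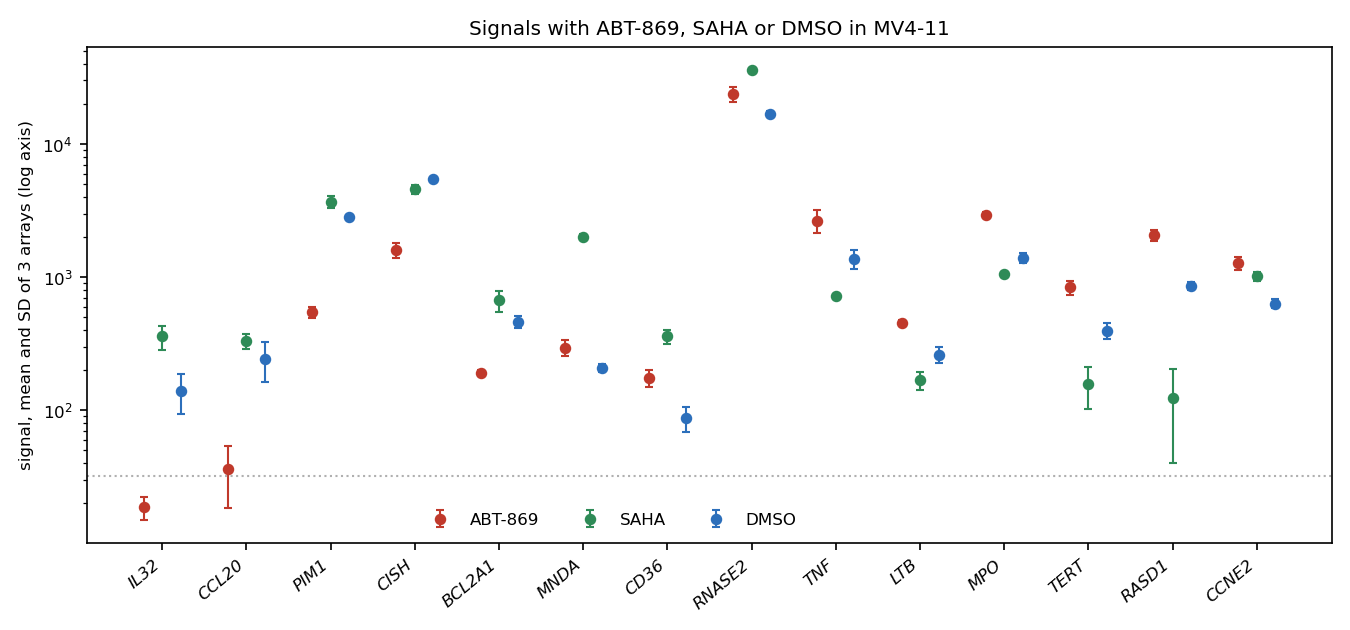
Mean signal with SD bars (n = 3 arrays each) of 14 genes with ABT-869, SAHA and DMSO in MV4-11, on a logarithmic axis. IL32, CCL20 and PIM1 are lower with ABT-869 than with SAHA, and TNF, LTB, MPO, TERT and RASD1 are higher.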

How the data were processed

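RNA of 24 cultures was hybridised to Affymetrix Human Genome U133 Plus 2.0 arrays, 3 arrays for each of 8 groups. The deposited values are linear signal intensity per probe set, scaled by the authors so that all arrays share 1 trimmed mean. No source used here names the program that made them. The 62 control probe sets were left out, signals under 32 were raised to 32, and log2 was taken. Probe sets were named through the platform annotation: 41091 name 1 gene, 1801 several and 11721 none here, and 41037 of those naming 1 gene were matched by gene ID. Each gene is represented by its brightest probe set (by mean across the 24 arrays), which gave 19775 genes, and 66 of 758 entries of the 43 gene lists had no probe set of their own. Where a gene has further probe sets these were fitted too. Of 229 further probe sets of the genes named here, 49 passed the test of ABT-869 against DMSO.

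Groups were compared with limma 3.58.1 (lmFit and eBayes) in R 4.3.3, in a fit over the 12 MV4-11 arrays, or over all 24 arrays for the difference between the lines and for MOLM-14, with Benjamini-Hochberg adjustment over all 54613 probe sets. Fold changes are on the floored log2 scale, SEs are those of limma, and the number of arrays limits the precision. Groups without overlap are described for named genes only, most of them past the test. The share of all genes without overlap was not counted, so this trait adds no evidence to the test. The fits were tested on simulated data first. Python 3.11.15, pandas 2.3.3, numpy 2.4.6, scipy 1.17.1 and matplotlib 3.10.9 were used for tables and figures. Promoter windows are those of RefSeq, at the first start listed for a gene.

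The alternatives were floors of 1 and 64, quantile normalization, centring of each array on its median, bright probe sets only, limma-trend, array weights, fits over 6 or 24 arrays, the replicate number as a block, leaving out each array, a 2-fold rule with no test, and no fold limit. Genes were named by rule: the 15 largest rises and 15 largest falls at an adjusted p under 0.05, at least 2-fold and a mean signal of at least 100, up to 4 members of each list, a set of FLT3-related and myeloid genes whatever their result, and the 6 largest differences each way between the lines and between the drugs. Genes outside this rule were named after their values were seen, and these also include FLT1, MX1, OAS1, IRF1, BCL6, SOCS3, PTP4A1, PTP4A2 and SLC1A5. The comparison, the gene lists and the motifs were chosen with earlier results of these data known. Nothing in the sources says whether the replicate arrays came from separate passages, so p-values measure the spread between these arrays.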

Additional observations from a re-analysis of the deposited data

Results flagged for a closer look

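The log2 response to ABT-869 in MV4-11 minus that in MOLM-14 had an adjusted p under 0.05 (limma, over all 24 arrays) for 69 of the genes named, and each difference follows its gene. The response was lower in MV4-11 for IFIT2 (-2.92), IFIT3 (-2.64), CCL20 (-2.57), COXFA4L2 (-2.21), IL31RA (-2.16), GSN-AS1 (-2.13), IL32 (-2.07), CLGN (-2.03), ATF5 (-2.01), IFIT1 (-1.95), S100P (-1.94), TM6SF1 (-1.83), TRIB3 (-1.75), CEBPB (-1.55) and DDIT3 (-1.45). It was also lower, by less, for WARS1 (-1.34), SLC7A5 (-1.26), ASNS (-1.21), ATF3 (-1.09), SLC3A2 (-1.08), ISG15 (-1.02), CDKN2D (-0.94), C5AR1 (-0.94), CEBPG (-0.93), GADD45B (-0.93), GADD45A (-0.92), IFIH1 (-0.89), CISH (-0.88), PMAIP1 (-0.84) and PIM1 (-0.84). The smallest differences on this side were those of ALDH1L2 (-0.82), YARS1 (-0.82), MTHFD2 (-0.77), PSAT1 (-0.74), GARS1 (-0.71), TXNIP (-0.70), GOT1 (-0.62), SARS1 (-0.62), CTSG (-0.61), AARS1 (-0.59), EIF4EBP1 (-0.58), KLF6 (-0.57), CARS1 (-0.56), SOCS2 (-0.55), DNAJB9 (-0.48), MYC (-0.43) and SLC7A1 (-0.43). The response was higher in MV4-11 for DEFB1 (2.62), LOC100506858 (2.24), MPEG1 (2.24), S100A8 (2.11), ALDH4A1 (2.05), S100A9 (1.82), MS4A4A (1.78), MAPK10-AS1 (1.76), PLAAT3 (1.67), FGL2 (1.31), TNF (1.28), YARS2 (0.99), CCNE2 (0.90), LTB (0.89), CSF1R (0.88), MS4A7 (0.84), NFE2 (0.67), GINS3 (0.65), RET (0.54), KIF11 (0.47), IRF8 (0.41) and IKZF1 (0.36). In MOLM-14 the means with DMSO were under the floor of 32 for CCL20 (29), GSN-AS1 (19.9), IL32 (16) and C5AR1 (23.4). A fall in MOLM-14 could hardly be measured for these genes, so their differences do not show a weaker response there. Other genes, such as IFIT2, ATF5 and TRIB3, also started lower in MOLM-14, and the part this plays in their differences was not tested. Among the genes with a higher response in MV4-11, S100A8, S100A9 (821.4 against 103.2 in MV4-11) and ALDH4A1 started higher in MOLM-14. The part of this was not tested either. Groups of 3 arrays are too small for a search for single outlying arrays, and none was made.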

How the results depend on the processing

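Of 167 genes named and past the test, 46 stayed past it under every alternative and 0 changed sign. The floor of 1 kept 64 of the 167, the fit of the 6 arrays 75, centring 103, quantile normalization 158 and the floor of 64 156, and leaving out 1 of the 6 arrays kept 103 to 128. Against 176 probe sets higher with ABT-869 than with DMSO, there were 977 at 2-fold with no test, 1081 at any fold, 102 with a floor of 1, 108 with a floor of 64, 81 with centred arrays, 86 in the fit of the 6 arrays, 283 in that of all 24, and 133 to 200 without 1 array. Against 195 lower, there were 550 at 2-fold with no test, 1042 at any fold and 167 to 226 without 1 array. For ABT-869 against SAHA the 279 higher and 387 lower became 111 and 688 with centred arrays, and 197 to 260 and 299 to 397 without 1 array. For the difference between the lines the 330 higher and 383 lower became 86 and 106 with a floor of 1, the higher ones 64 with centred arrays, and 216 to 412 and 253 to 479 without 1 array. The cause of these shifts was not tested. The median change of the ATF4 list was -0.75 when all probe sets of a gene were averaged. Deviations from the group mean correlated with r of 0.049, 0.042 and -0.005 between same-numbered ABT-869 and DMSO arrays. Between differently numbered ones r was -0.051 to 0.004. With 3 arrays in each mean, these values cannot settle whether the numbers pair the samples. With the replicate number as a block, 121 probe sets were higher and 172 lower with ABT-869 than with DMSO, 201 and 340 than with SAHA, and 271 and 303 for the difference between the lines, and 123 of the 167 genes were kept. On the 6 arrays 27.4% of values lay under the floor, and differences among these were not measured.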

Other observations

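Several of the strongest changes fell outside the gene lists. TM6SF1, a membrane protein of lysosomes, had signals of 65.1, 43.9 and 72.1 with ABT-869, against 293.1, 298.6 and 349.5 with DMSO (-2.40, SE 0.207, adjusted p = 0.000879 by limma). PLAAT3, a phospholipase of fat tissue and other cells, had 136.7, 243.6 and 205.4 with ABT-869, against 59.8, 34.8 and 47.0 with DMSO (2.04, adjusted p = 0.00275). The groups did not overlap in either gene by these probe sets. A further probe set of PLAAT3 averaged 179.5 with ABT-869 and 152.0 with DMSO and did not pass the test (0.18, adjusted p = 0.941). CLGN, a chaperone best known from testis, had 15.9, 45.0 and 44.2 with ABT-869, against 202.6, 137.9 and 191.4 with DMSO (-2.13, adjusted p = 0.00215). Among lysosomal proteases, CTSH averaged 168.2 ± 6.59 with ABT-869 and 350.0 ± 50.2 with DMSO (SD, n = 3 each; -1.05, adjusted p = 0.00319). GAPT, a membrane adaptor of blood cells, rose by 1.57 (adjusted p = 0.00464) and DTX4, a ubiquitin ligase of the Notch pathway, by 1.63 (adjusted p = 0.00883).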
